A study of Mus musculus with 6 samples.

Results

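Polycomb and trithorax proteins are the histone modifiers that keep genes silent or active through cell division. The Polycomb and trithorax genes described here were chosen by name from 41 listed members of PRC1, PRC2, the BAP1 complex, the H3K27 demethylases, the H3K4 methyltransferase complexes and the H3K4 demethylases. A member was measured where the array annotation gave it a row naming it alone, and the brightest such row over all 6 arrays was kept. That gave 39 members of 19938 genes, whereas Cbx6 and Ash1l had no such row and were not analysed here. The 39 comprised 6 PRC2 core subunits, 5 PRC2 accessory subunits, 8 RING and PCGF proteins and 6 CBX and PHC proteins of PRC1, 2 proteins of variant PRC1, 3 of the BAP1 complex, 2 H3K27 demethylases, 4 subunits of H3K4 methyltransferases and 3 H3K4 demethylases.

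RNA came from LSK CD150- cells of mouse bone marrow, a fraction of early progenitors that lacks lineage markers, carries Sca-1 and Kit and is depleted of long-term stem cells. The deleted group was Cebpafl/fl;Mx1Cre (3 mice) and the control group was Cebpafl/fl without the transgene (3 mice). Mice of both genotypes had Cebpa alleles flanked by loxP sites, received pIpC and were taken at day 18. C/EBPα, the product of Cebpa, is a transcription factor that drives myeloid differentiation. Mx1Cre is driven by an interferon-responsive promoter that is active in many cell types besides blood cells. As controls lacked the transgene, carrying Cre and losing Cebpa cannot be told apart. Every mouse had an array of its own (Affymetrix Mouse Gene 1.0 ST), so n = 3 per genotype, and this small number of arrays sets the precision. Values are log2 signals, in which a difference of 1 is a doubling.

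The Cebpa row read 6.37, 5.82 and 6.09 in deleted mice, against 7.84, 7.85 and 7.73 in control mice, and its log2 fold change was -1.71 ± 0.14 (SE; limma, adjusted p = 0.000883). The position of its probes relative to the deleted part was not stated. Kit, which defines the sorted fraction, was high on every array but fell, reading 9.23 to 9.59 in deleted mice and 10.02 to 10.31 in control mice (log2 -0.75, adjusted p = 0.0270). Slamf1, the gene of CD150, read 3.48 to 4.86 over all arrays, below the median of all values, 6.20. The labels call the mice female, whereas Kdm5d and Eif2s3y, on the Y chromosome, read 8.04 to 8.49 and Xist read 4.46 to 5.13 over the 6 arrays. These values go against that label in both genotypes. Array medians were 6.16 to 6.20 in deleted and 6.22 to 6.23 in control samples.

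PRC2 carries the methyltransferases EZH1 and EZH2, which methylate lysine 27 of histone H3, a mark of silenced genes. PRC1 carries the ubiquitin ligases RING1 and RNF2 (also called RING1B), which ubiquitinate histone H2A. In canonical PRC1 a CBX protein reads the PRC2 mark, whereas variant PRC1 holds RYBP or its relative YAF2 in place of CBX. Trithorax proteins act in the opposite direction through methylation of lysine 4 of histone H3, and in blood Bmi1 and Ezh2 are known for their roles in stem cell self-renewal.

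Most of these genes stayed near their control level in deleted mice, and the members that passed the test were both PRC1 genes. Rybp and Rnf2 rose, and no member fell. Among all genes 1.43% were called in either direction, 0.702% higher and 0.732% lower (limma, Benjamini-Hochberg adjusted p under 0.05 over all genes). Of the members 5.13% were called. These shares cannot be compared directly, as every member had a mean signal of at least 6.39 and all genes reach down to 2.65. With the dimmer genes dropped (below the middle of all mean signals), 438 genes were called, against 286 of all genes. In that setting 2 of 38 members were called. The background at the members' brightness thus lay above 1.43%, so the gap between 1.43% and 5.13% overstates any excess. Enrichment was not tested. Other shares of all genes given below include dim genes too. At an unadjusted p under 0.05, 6 members were higher and 2 lower, 20.5% of the 39, against 15.9% of all genes (9.1% higher and 6.77% lower), so this looser count was near the background. The median log2 fold change was 0.04 over the 39 members and 0.03 over all genes. Regardless of sign, the median was 0.18 over the members and 0.12 over all genes. The 95% interval of the fold lay within 2-fold in either direction for all 39 members and within 1.5-fold for 30 of them, or 76.9%, against 80.7% of all genes. The members whose interval reached past 1.5-fold were Rybp, Rnf2, Bmi1, Pcgf2, Pcgf6, Cbx8, Phf1, Phc3 and Rbbp5.

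**Figure D1:**
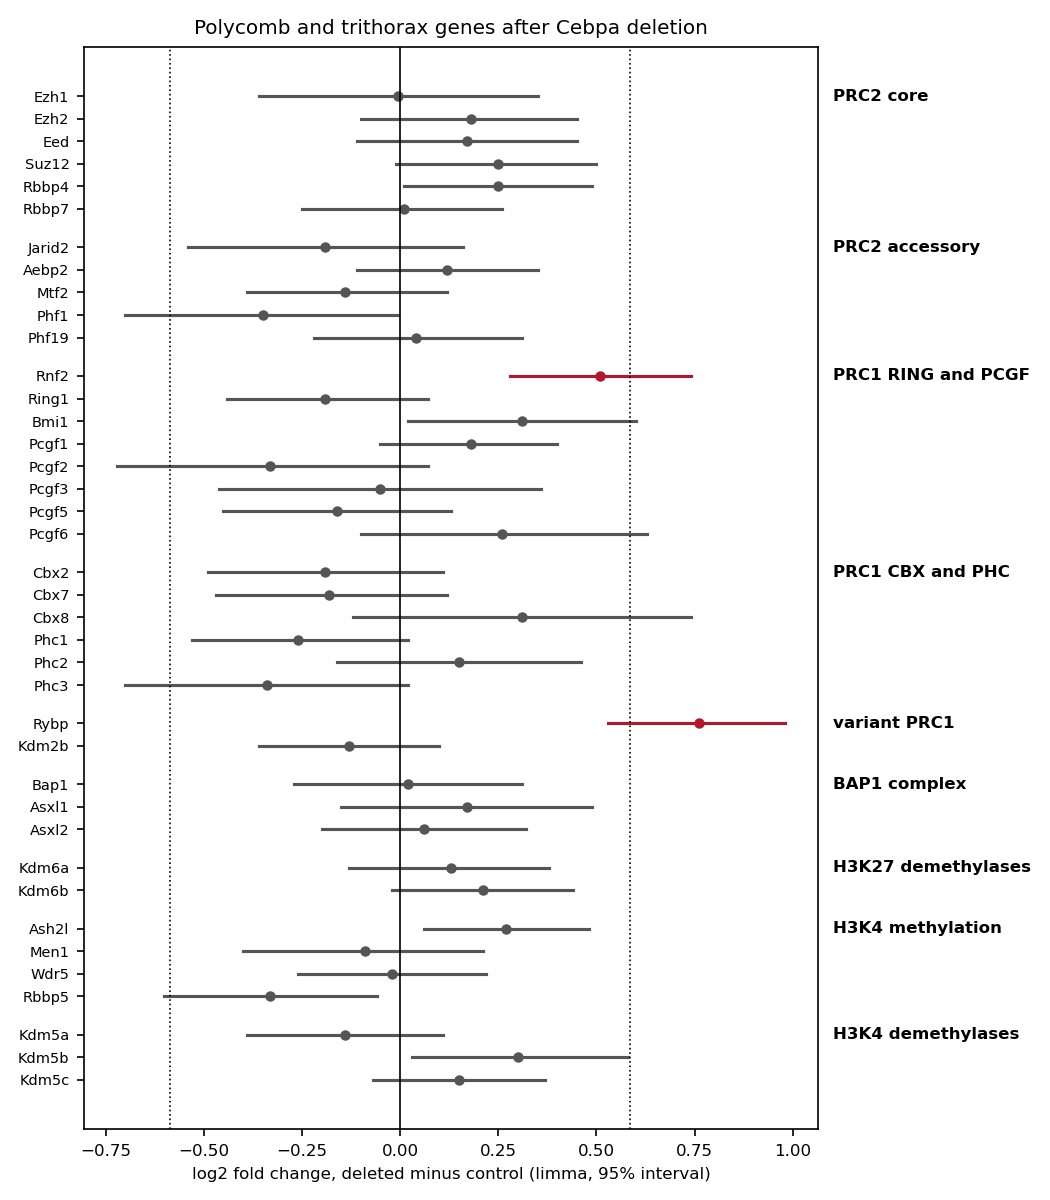
Log2 fold change of each of the 39 members, deleted minus control, with its 95% limma interval on the x axis and the genes grouped by complex on the y axis. Red marks an adjusted p under 0.05 over all genes, and dotted lines mark 1.5-fold in either direction. Rybp and Rnf2 are red and lie right of 0, and every interval stays within 2-fold.

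Rybp, which encodes the subunit that defines variant PRC1 and binds RNF2 directly, had the largest difference of the 39. It read 9.06, 9.07 and 9.15 in deleted mice, against 8.39, 8.24 and 8.37 in control mice. All 3 deleted arrays lay above all 3 control arrays, and replicates of each genotype were close together. The mean was 9.09 ± 0.05 in deleted and 8.34 ± 0.08 in control mice (SD, n = 3 each), a rise of 1.69-fold with a 95% interval of 1.45 to 1.97 (log2 0.76 ± 0.10 SE, limma adjusted p = 0.0106). By exact permutation of the arrays the two-sided p was 0.1, and no smaller p is possible with 3 mice per genotype.

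The annotation assigns a dimmer row to Rybp as well. That row read 6.90, 6.81 and 6.92 in deleted mice, against 6.62, 6.70 and 6.71 in control mice. The genotypes again did not overlap, but the difference was 0.20 ± 0.09 (log2, SE) and did not pass over all deposited rows (limma adjusted p = 0.364). In that test the brighter row did not pass either (adjusted p = 0.0777). The RefSeq table lists Rybp on chromosome 6 and a transcribed pseudogene, Rybp-ps, on chromosome 13. The files do not say which copy each row reads, and the size of the rise is uncertain between these rows. With the mean of both rows it was 0.48 on the log2 scale (adjusted p = 0.0434). The call was lost without control b, where the log2 fold change was 0.71 (adjusted p = 0.0542), and held when any other single array was left out (0.0275 to 0.0426).

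Rnf2, on chromosome 1, encodes the main catalytic subunit of PRC1. It read 8.33, 8.13 and 8.18 in deleted mice, against 7.74, 7.68 and 7.70 in control mice. The lowest deleted value stood above the highest control value, and the controls spanned a narrow range. Its rise was 1.42-fold with a 95% interval of 1.22 to 1.67 (log2 0.51 ± 0.10 SE, limma adjusted p = 0.0440), with means of 8.22 ± 0.10 in deleted and 7.70 ± 0.03 in control mice (SD, n = 3 each). Whichever single array was left out, the difference was 0.45 to 0.55 on the log2 scale but the adjusted p was 0.0975 to 0.147, so the call needed all 6 arrays. With an intensity trend in the prior it was 0.0505.

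**Figure D2:**
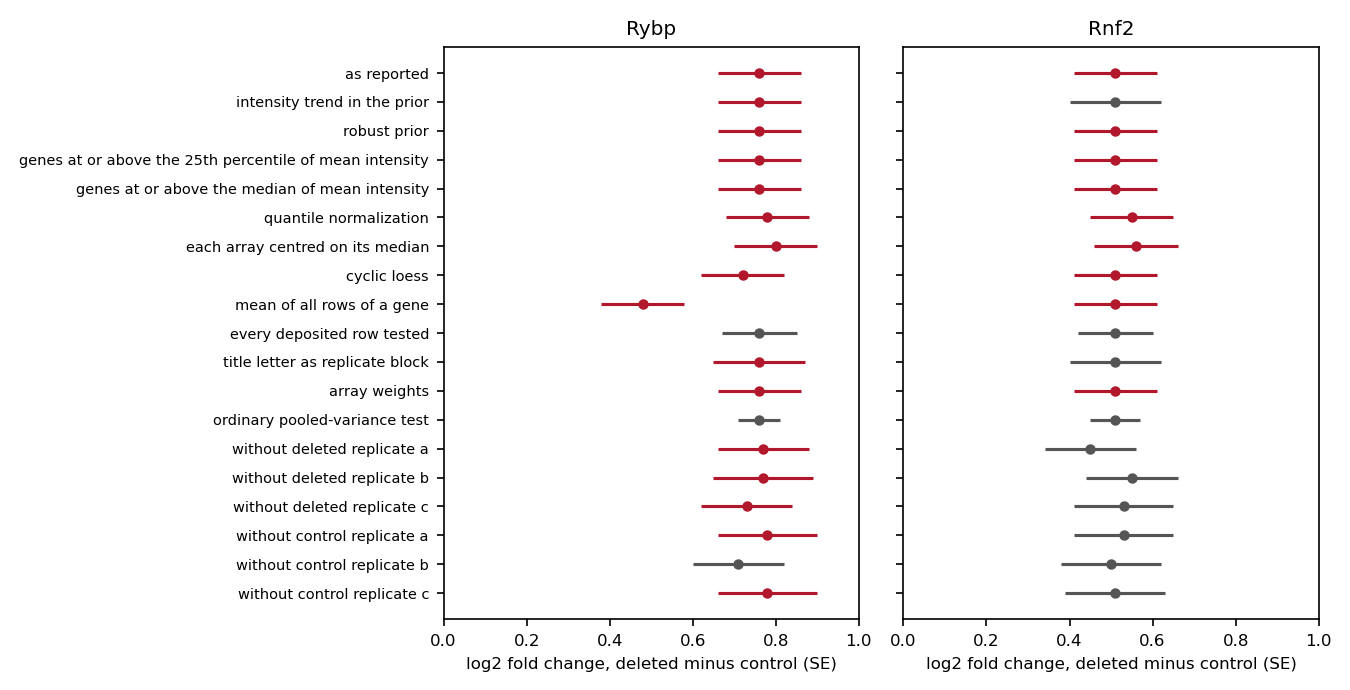
Log2 fold change of Rybp and Rnf2, deleted minus control, with its SE on the x axis, as reported and under each of 18 alternatives listed down the y axis. Red marks an adjusted p under 0.05. Rybp stays between 0.48 and 0.80 and Rnf2 between 0.45 and 0.56, and Rnf2 loses its colour whenever an array is left out.

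Ring1, the paralog whose product can take the place of RNF2 in PRC1, did not pass the test. Ring1 read 7.43, 7.34 and 7.14 in deleted mice, against 7.45, 7.60 and 7.41 in control mice, and the genotypes overlapped (log2 fold change -0.19 ± 0.11 SE, limma adjusted p = 0.481). Within each array the log2 ratio of Rnf2 to Ring1 was 0.90, 0.80 and 1.04 in deleted mice, against 0.29, 0.08 and 0.28 in control mice. The ratio changed by 0.70 on the log2 scale, or 1.62-fold, and did not overlap between genotypes (exact two-sided permutation test, p = 0.1, the smallest possible, and 0.225 after Benjamini-Hochberg adjustment over 9 pairs). The change was 0.63 to 0.75 when single arrays were left out.

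The start regions of this pair are shown because Rnf2 and Ring1 encode alternative ligases of the same complex and their ratio shifted most of the 9 pairs. Both come from RefSeq on GRCm38.p6, cover the 250 bases before the start site, lie on the minus strand and are written 5′ to 3′, with each CG dinucleotide, the base pair step that is methylated in mammalian DNA, in capitals. Rnf2 lies at chr1:151500992-151501241 and Ring1 at chr17:34024681-34024930.
Rnf2: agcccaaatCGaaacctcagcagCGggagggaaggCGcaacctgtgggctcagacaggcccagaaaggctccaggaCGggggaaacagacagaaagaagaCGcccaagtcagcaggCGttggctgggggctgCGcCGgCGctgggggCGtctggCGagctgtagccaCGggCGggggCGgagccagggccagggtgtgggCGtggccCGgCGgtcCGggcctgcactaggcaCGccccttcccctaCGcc
Ring1: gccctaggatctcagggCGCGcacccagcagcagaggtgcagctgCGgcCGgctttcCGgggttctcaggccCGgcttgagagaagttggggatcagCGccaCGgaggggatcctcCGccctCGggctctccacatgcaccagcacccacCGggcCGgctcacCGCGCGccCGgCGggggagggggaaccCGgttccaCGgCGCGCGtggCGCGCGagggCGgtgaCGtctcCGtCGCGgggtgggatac
The Rnf2 region held 20 CG dinucleotides and 70.4% G and C, and that of Ring1 held 30 and 73.6%. Neither held the C/EBP core TTNNGCAA, the YY1 core AAGATGGC or the E2F core TTTCGCGC on either strand.

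Of the 39 members, 33 had a promoter of 300 bases in the RefSeq table, 250 before and 50 after the start, and the first listed was used. Ash2l, Cbx2, Kdm5a, Kdm6b, Pcgf1 and Rybp had none there. These promoters were rich in CG dinucleotides, with a median of 23 (4 in Aebp2 to 50 in Bap1), against 7 over 27025 promoters, and their median G and C content was 64.3% against 52.7%. The C/EBP core occurred in 1 of 33, that of Cbx8 (3.03%, against 10.8% of all promoters). The YY1 core occurred in Kdm5c, Phc3 and Phf19 (9.09% against 2.88%), and the E2F core in none (against 0.318%). These shares were not adjusted for the difference in G and C content, and they rest on 1, 3 and 0 promoters. A match of letters is a description of the window and shows no binding.

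The PCGF proteins set which PRC1 form assembles. Bmi1 (also called Pcgf4), a subunit of canonical PRC1, read 8.87, 8.70 and 9.01 in deleted mice, against 8.66, 8.35 and 8.64 in control mice. The genotypes were separate by a narrow gap, and the difference of 0.31 ± 0.13 (log2, SE) did not pass (limma adjusted p = 0.274). Its paralog Pcgf2 (Mel18) read 6.50, 6.58 and 6.88 in deleted mice, against 6.97, 7.34 and 6.63 in control mice, with overlap (-0.33 ± 0.18 SE, adjusted p = 0.418). The log2 ratio of Bmi1 to Pcgf2 was 2.37, 2.13 and 2.14 in deleted mice, against 1.70, 1.01 and 2.01 in control mice. It was thus 0.64 higher without overlap (exact permutation p = 0.1, adjusted 0.225), but only 0.36 higher without control b. Pcgf1, of the variant complex with KDM2B and BCOR, had non-overlapping genotypes, with a difference of 0.18 (log2, adjusted p = 0.435). Pcgf6 (0.26), Pcgf3 (-0.05) and Pcgf5 (-0.16), which belong to variant complexes, overlapped. Kdm2b, whose CXXC domain binds unmethylated CG dinucleotides and brings PCGF1 complexes to them, read 7.16, 6.97 and 7.05 in deleted mice, against 7.27, 7.13 and 7.17 in control mice (-0.13 ± 0.10 SE, adjusted p = 0.594).

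None of the 6 measured CBX and PHC genes of canonical PRC1 passed with limma, and 0 had an unadjusted p under 0.05. In each the genotypes overlapped. Of these, 2 had positive and 4 negative log2 fold changes, from -0.34 to 0.31, with a median of -0.19. Phc3, a polyhomeotic protein that lets PRC1 polymerise, had the smallest p of this group. It read 9.91, 9.49 and 9.95 in deleted mice, against 10.17, 9.87 and 10.33 in control mice (-0.34 ± 0.16 SE, adjusted p = 0.340), and its dimmer row gave -0.40. The other polyhomeotic genes were Phc1 (-0.26) and Phc2 (0.15). The log2 ratio of Phc1 to Phc2 was 0.44, 0.57 and 0.20 in deleted mice, against 0.61, 0.98 and 0.84 in control mice, lower by 0.41 without overlap (exact permutation p = 0.1, adjusted 0.225). The chromodomain genes, whose proteins bind methylated H3K27, were Cbx2 (-0.19), Cbx7 (-0.18) and Cbx8 (0.31), and the Cbx8 to Cbx7 ratio overlapped between genotypes.

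**Figure D3:**
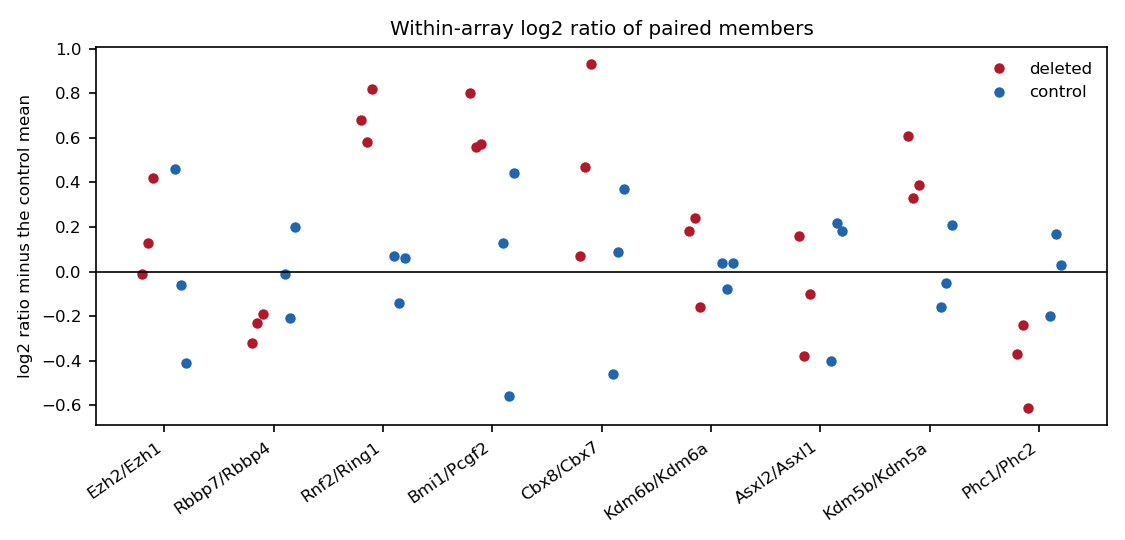
Within-array log2 ratio of 9 pairs of paralogous members, minus the mean ratio of the control arrays, on the y axis, with deleted mice in red left of control mice in blue for each pair. The genotypes do not overlap for Rnf2/Ring1, Bmi1/Pcgf2, Kdm5b/Kdm5a and Phc1/Phc2, and Rnf2/Ring1 has the largest shift, 0.70.

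PRC2 transcripts differed little between genotypes. In the core, 5 of 6 log2 fold changes were positive, with a median of 0.17 and a highest of 0.25, and none passed. Ezh2, the methyltransferase of dividing cells, read 10.81, 10.68 and 10.79 in deleted mice, against 10.77, 10.61 and 10.37 in control mice (0.18 ± 0.12 SE, limma adjusted p = 0.538), and its 95% interval ran from -0.10 to 0.45. Ezh1, the paralog of resting cells, read 7.90, 7.63 and 7.45 in deleted mice, against 7.39, 7.75 and 7.86 in control mice, with means of 7.66 in deleted and 7.67 in control mice. Rbbp4, a histone-binding subunit that PRC2 shares with other complexes, read 8.33, 8.25 and 8.26 in deleted mice, against 7.91, 8.17 and 8.01 in control mice. It did not overlap, nor did Suz12, the scaffold subunit, but neither passed (0.25 each, adjusted p = 0.293 and 0.330). Eed, which binds the methylated histone, had a log2 fold change of 0.17, and Rbbp7, paralog of Rbbp4, of 0.01.

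Among the accessory subunits, which steer PRC2 to its sites, Phf1 had the lowest unadjusted p. It read 6.82, 6.65 and 6.49 in deleted mice, against 7.33, 6.85 and 6.82 in control mice, and the genotypes were separate by less than these decimals show (-0.35 ± 0.15 SE, adjusted p = 0.308). Without control a, its highest array, the difference was -0.19. The other Polycomb-like subunits Mtf2 (-0.14) and Phf19 (0.04), and Jarid2 (-0.19) and Aebp2 (0.12) of the alternative PRC2 form, did not pass. Jarid2 spread over 8.50, 8.17 and 7.82 in deleted mice, against 8.38, 8.31 and 8.38 in control mice.

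The BAP1 complex removes ubiquitin from histone H2A and so opposes PRC1. Its members Bap1, the enzyme (0.02), and Asxl1 (0.17) and Asxl2 (0.06), which activate it, all overlapped between genotypes, with 95% intervals within 1.5-fold. Asxl1, with the smallest p of these, read 8.30, 8.57 and 8.53 in deleted mice, against 8.58, 8.12 and 8.20 in control mice (adjusted p = 0.625). Kdm6b, a demethylase of the PRC2 mark, read 7.08, 7.16 and 6.99 in deleted mice, against 6.96, 6.84 and 6.80 in control mice. Each deleted value was above each control value, but the difference of 0.21 ± 0.10 (log2, SE) missed the threshold (adjusted p = 0.367). Its X-linked paralog Kdm6a, a subunit of the MLL3 and MLL4 complexes, had 0.13.

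On the trithorax side no member passed with limma, and of the 4 methyltransferase subunits 1 was higher and 1 lower at an unadjusted p under 0.05 (9.1% and 6.77% of all genes). Ash2l, a core subunit shared by the H3K4 methyltransferase complexes, read 9.03, 9.03 and 9.08 in deleted mice, against 8.79, 8.74 and 8.80 in control mice. The genotypes were clearly separate with an SD of 0.03 in each, yet the difference of 0.27 ± 0.09 (log2, SE) missed the threshold (limma adjusted p = 0.204). Rbbp5, a subunit of the same core, differed in the opposite direction, with 7.93, 8.05 and 8.15 in deleted mice, against 8.25, 8.28 and 8.57 in control mice (-0.33 ± 0.12 SE, adjusted p = 0.223). Wdr5, the third core subunit, had -0.02, and Men1, which tethers MLL1 and MLL2, had -0.09.

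Among the H3K4 demethylases Kdm5b read 8.54, 8.40 and 8.36 in deleted mice, against 7.91, 8.25 and 8.23 in control mice. The genotypes did not overlap, and the difference of 0.30 ± 0.12 (log2, SE) missed the threshold (adjusted p = 0.260). Kdm5a had -0.14. The log2 ratio of Kdm5b to Kdm5a was -0.33, -0.61 and -0.55 in deleted mice, against -1.10, -0.99 and -0.73 in control mice, a difference of 0.44 without overlap (exact permutation p = 0.1, adjusted 0.225). X-linked Kdm5c did not overlap either (0.15, adjusted p = 0.524), and its Y-linked paralog Kdm5d, no member, had -0.14.

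In all, the values of 13 of 39 members, or 33.3%, did not overlap between genotypes, against 21.2% of all genes. Of the 9 paralog pairs 4 had ratios that did not overlap. Those of Ezh2 to Ezh1, Rbbp7 to Rbbp4, Cbx8 to Cbx7, Kdm6b to Kdm6a and Asxl2 to Asxl1 did. No share was worked out for other pairs of genes, so the count of 4 has no background to be read against.

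**Figure D4:**
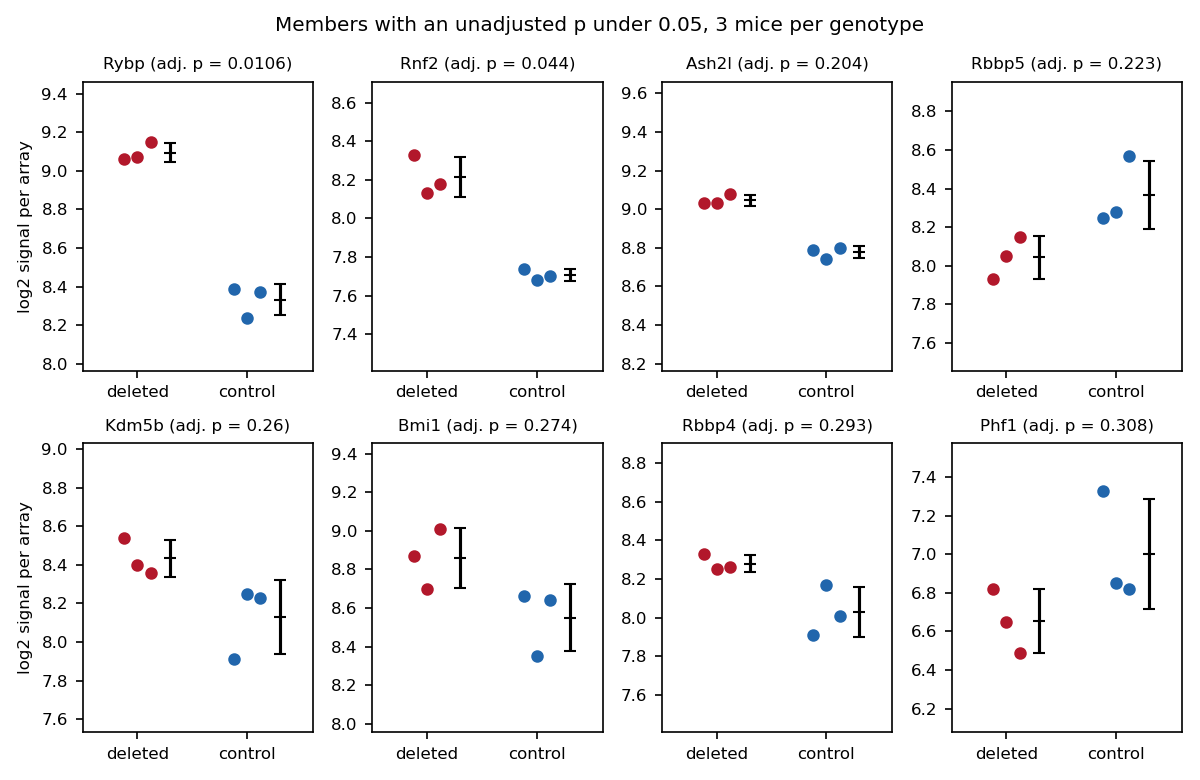
Log2 signal per array on the y axis for the 8 members with an unadjusted p under 0.05, with deleted mice in red left of control mice in blue and the mean and SD in black. Every panel spans 1.5 log2 units. Rybp and Rnf2 show the widest gaps between genotypes, while Phf1 and Bmi1 nearly touch.

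Each array read the RNA of many sorted cells, so fewer cells of a type and less RNA per cell cannot be told apart. Markers of other cells moved with genotype beside the rise of Rybp and Rnf2. Cd48, a SLAM family gene whose product separates progenitors from stem cells, read 10.96, 10.74 and 10.67 in deleted mice, against 9.87, 9.78 and 9.71 in control mice. It rose 2.01-fold (log2 1.00 ± 0.11 SE, limma adjusted p = 0.0052). Of 11 stem cell markers 5 fell (Mecom, Hlf, Procr, Meis1 and Myct1), and the log2 of their summed signal was 10.63 to 10.69 in deleted and 11.31 to 11.47 in control mice. Of 8 mast cell and basophil markers Cpa3 and Gzmb rose and Kit fell (summed 11.78 to 12.23 in deleted and 10.66 to 10.84 in control mice). Mcpt8 did not pass (mean 7.07 in deleted and 6.98 in control mice), and Ms4a2, Fcer1a, Hdc and Prss34 stayed below the median of all values on every array. Of 12 neutrophil markers 4 fell (S100a8, S100a9, Camp and Csf3r; summed 11.55 to 12.12 in deleted and 11.89 to 12.18 in control mice), and of 8 monocyte markers Cd68 fell (9.81 to 9.91 in deleted and 9.96 to 10.14 in control mice). No stem cell, neutrophil or monocyte marker was called higher. Positive log2 fold changes were found in 3 stem cell, 3 neutrophil and 4 monocyte markers, and negative ones in 8, 9 and 4. Slamf1 (0.53), Gfi1b (0.23) and Cxcr2 (0.46) were higher without overlap but did not pass (limma adjusted p = 0.314, 0.409 and 0.122). None of 7 B lymphoid markers passed, though their sum was higher in deleted mice (11.65 to 12.00, against 11.02 to 11.41 in control mice). Each sum follows its brightest genes and does not stand for a whole cell type. The brightest B lymphoid marker was Dntt (mean 11.42 in deleted and 10.72 in control mice). Among neutrophil markers it was Mpo (11.39 and 11.14), whereas S100a8 and S100a9 had log2 fold changes of -3.51 and -3.37. None of 8 T and NK, 5 erythroid and 6 megakaryocyte markers passed. None of 14 S phase and 14 G2/M genes passed, and their sums overlapped between genotypes (13.58 to 13.74 in deleted and 13.63 to 13.76 in control mice for S phase, 12.51 to 12.81 in deleted and 12.63 to 12.85 in control mice for G2/M). The part of these shifts in the Rybp and Rnf2 results was not tested.

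Of 28 measured Polycomb genes outside the member list, 2 fell and none rose, and the median log2 fold change was -0.05. At an unadjusted p under 0.05, 2 were higher and 5 lower (25%, against 15.9% of all genes). Ogt, which encodes the enzyme that adds N-acetylglucosamine to nuclear proteins and whose fly ortholog is the Polycomb gene super sex combs, read 9.69, 9.43 and 9.51 in deleted mice, against 10.29, 10.81 and 10.10 in control mice. All deleted arrays were lower, and the difference was -0.86 ± 0.17 (log2, SE; limma adjusted p = 0.0485). The call held without control c (0.0365) and was lost when any other single array was left out (0.0837 to 0.154), after median centring (0.0525) and with array weights (0.0546). Scml2, a PRC1-associated protein, read 5.40, 5.31 and 5.43 in deleted mice, against 6.10, 5.80 and 6.0 in control mice, all below the median of all values, where background bears more on a signal. It fell by 0.58 ± 0.11 (SE, adjusted p = 0.0399) and lost its call whichever array was left out (0.0701 to 0.129) and after median centring (0.0514). The other 5 of these were Yaf2, the paralog of Rybp, Bcor, a partner of PCGF1, Lcor, Scmh1 and Hcfc1, named after their values were seen. Yaf2 read 7.47, 7.56 and 7.64 in deleted mice, against 7.32, 7.07 and 7.39 in control mice (log2 fold change 0.30, adjusted p = 0.253). Bcor read 8.02, 8.13 and 7.96 in deleted mice, against 7.52, 7.69 and 7.80 in control mice (0.37, adjusted p = 0.146). Lcor had -0.44 (adjusted p = 0.157, no overlap), Scmh1 -0.41 (0.259) and Hcfc1 -0.34 (0.308), the last 2 with overlap.

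A list of 24 further trithorax-related genes held H3K4 methyltransferases and their partners, and also Setd2 and Nsd1, which methylate another lysine of H3, Kdm5d and Uty of the demethylase families, and Kat8 and Kansl1 of the NSL complex. None passed with limma (6 at an unadjusted p under 0.05, of which 2 higher and 4 lower, or 25% against 15.9% of all genes), and the median was -0.02. Kmt2a, which encodes MLL1, read 9.75, 9.56 and 9.74 in deleted mice, against 10.00, 10.51 and 10.27 in control mice. Its genotypes did not overlap and the log2 fold change was -0.58 ± 0.14 (SE, adjusted p = 0.0811). Kansl1, a subunit of the NSL acetyltransferase complex, had -0.54 ± 0.13 (SE, adjusted p = 0.0839) and passed without control c (0.0402).

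**Figure D5:**
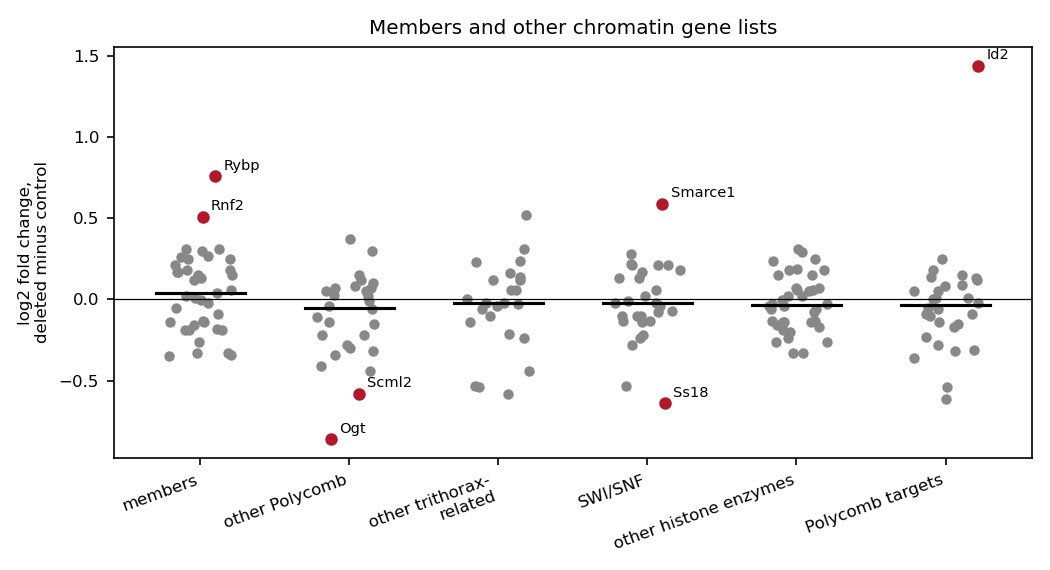
Log2 fold change, deleted minus control, on the y axis for every measured gene of the 39 members and of 5 other lists, with medians as black bars and adjusted p under 0.05 in red. List medians lie between -0.05 and 0.04, and the called genes are Rybp, Rnf2, Smarce1 and Id2 above 0 and Ogt, Scml2 and Ss18 below it.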

How the data were processed

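The arrays measured RNA of sorted cells from 6 mice, each hybridised singly per the series' design. The deposited table holds log2 signals, 1 per probe set and array. The submitters' processing notes name RMA and Affymetrix Expression Console 1.1.2; no source used here gives the settings or annotation build. The 35556 rows were used as deposited, without detection calls or a filter on dim rows. Of these, 21789 named 1 gene, 1621 several, and 12146 are unnamed here. The brightest row was kept for 999 genes with several, 4 of them members.

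The comparison of genotypes used limma 3.58.1 under R 4.3.3 (functions lmFit and eBayes, no trend, robust prior or block, prior degrees of freedom 5.52), two-sided, with Benjamini-Hochberg adjustment over 19938 genes. Paralog ratios and single members were also set against exact permutation tests (SciPy 1.17.1, Python 3.11.15). The fit was tested on 20 simulated tables with 200 changed genes each. It recovered 16.1% of changes of 0.5 on the log2 scale, 89.9% of 1 and 99.7% of 2, and 5.34% of calls were false. A gene that did not pass can thus still differ by 0.5 or more, as some changes of 1 and 2 were missed too. No size between 0.5 and 1 was simulated. Sequences and chromosomes came from RefSeq tables of GRCm38.p6, which changed 0 symbols.

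Members, lists and pairs were chosen with earlier results of these data known. All members are named; 6 array values are given for those with an unadjusted p under 0.05, the smallest p of each of 9 groups, and pairs without overlap, and also, outside that rule, for Ring1, Pcgf2, Ezh1, Ezh2, Jarid2 and Kdm2b. Other genes are named where called, or else the 2 with the smallest p of a list. Outside that rule, uncalled genes are also named as sample checks and among the markers, other Polycomb genes and Polycomb targets. Some of these were picked after their values were seen. Alternatives covered the prior, intensity filters, scaling, row choice, title letters as a block, array weights, a pooled-variance test and leaving out arrays.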

Additional observations from a re-analysis of the deposited data

How the results depend on the processing

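The 2 members called were also called with a robust prior, both intensity filters, quantile, median and cyclic loess scaling, averaged rows per gene and array weights. Only Rybp passed with an intensity trend (1 member). With every deposited row tested 0 passed, and with the ordinary pooled-variance test 0, against 6 members at an unadjusted p under 0.05 in each. At an unadjusted p under 0.05 these settings held 2576 and 2585 of all 19938 genes. The 6 of 39 members, and the counts given below for the 149 genes outside the list, were not tested against this background. Over all genes 8 and 0 passed in these settings, against 286 as reported, so calls were lost across the whole table. Leaving out single arrays gave 0 to 1 members, and 53 to 250 of all genes. The count of called genes outside the member list, 5 as reported (Ogt, Scml2, Smarce1, Ss18 and Id2), became 3 with the stricter intensity filter (genes above the median), 2 after median centring, 3 with array weights, 0 with every deposited row tested and 0 with the pooled-variance test (27 and 29 at an unadjusted p under 0.05), and 1 to 3 when single arrays were left out. The 3, without control c, were Id2, Ogt and Kansl1, and Id2 was the 1 called without each other array. With the title letters as a replicate block 1 member (Rybp, adjusted p = 0.0253, while Rnf2 had 0.0707) and 1 gene outside the list (Id2) passed. Same-letter samples did not deviate together more than others (r = -0.0114, -0.0386 and 0.0609 across genes, against -0.101 to 0.111 for different letters). With 3 samples per genotype this cannot decide whether same-letter samples have anything in common.

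Signs turned only for differences near 0. Ezh1 was 0.05, 0.04 and 0.00202 after quantile, median and loess scaling, Wdr5 was 0.05 and 0.03 after quantile and median scaling, and Rbbp7 was -0.02 with the mean of its rows and -0.00377 with array weights. Without single arrays Ezh1 ranged from -0.14 to 0.10, Rbbp7 from -0.06 to 0.10, Wdr5 from -0.09 to 0.02, Phf19 from -0.07 to 0.10, Pcgf3 from -0.22 to 0.10 and Bap1 from -0.08 to 0.11. The cause was not tested. The median of all genes moved from 0.029 to 0.054 under quantile, 0.077 under median and 0.009 under loess scaling.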

Other observations

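Of 29 measured SWI/SNF genes, subunits of the remodelling complex that counters Polycomb, 1 rose and 1 fell, with a median log2 fold change of -0.02. At an unadjusted p under 0.05, 2 were higher and 3 lower, or 17.2% against 15.9% of all genes. Smarce1, the DNA-binding subunit BAF57, read 10.43, 10.41 and 10.36 in deleted mice, against 9.67, 9.88 and 9.88 in control mice (log2 fold change 0.59 ± 0.10 SE, limma adjusted p = 0.0307). Ss18, a subunit of the BAF form of the complex, read 7.46, 7.68 and 7.49 in deleted mice, against 8.34, 7.94 and 8.26 in control mice (-0.64 ± 0.13 SE, adjusted p = 0.0485). In neither gene did the genotypes overlap, but both lost their call whichever single array was left out (Smarce1 0.0567 to 0.0995, Ss18 0.0553 to 0.141), and Ss18 also lost it under each other scaling.

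None of 38 other histone lysine and arginine enzymes and acetylation genes passed with limma, with a median of -0.04. At an unadjusted p under 0.05 there were 5, or 13.2% against 15.9% of all genes. The smallest p belonged to Hdac2, a deacetylase (0.31 ± 0.10 SE, adjusted p = 0.181), and Kdm1a, the demethylase LSD1 (0.29 ± 0.10 SE, adjusted p = 0.197), and neither overlapped between genotypes.

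Of 30 measured genes known as Polycomb targets in other cells, 1 rose and none fell, with a median of -0.03. Id2, an inhibitor of E proteins, read 6.75, 6.99 and 7.51 in deleted mice, against 5.68, 5.85 and 5.40 in control mice (1.44 ± 0.19 SE, adjusted p = 0.0108), and its call held whichever single array was left out (0.0198 to 0.0446). At an unadjusted p under 0.05, the genes of this list were Id2 above 0 and Hoxa5, Hoxa9, Hoxb2, Hoxb5 and Hoxb6 below it, 20.0% of the list against 15.9% of all genes.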
